A study of Homo sapiens with 26 samples.

Results

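Mitochondrial ribosomal protein genes were taken as every gene of the count tables named MRPL or MRPS followed by a number, with or without a closing letter. The rule found 78 genes of 19478, each counted on the coding sequence of 1 transcript in all 4 tables, with 49 genes named for the large subunit (MRPL) and 29 for the small subunit (MRPS). Ribosome footprints, the mRNA fragments that ribosomes protect from RNase I, had been sequenced in 26 libraries of 3 human cell lines. The series asked, by its title, whether removing ribosomal RNA with a nuclease biases such libraries.

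The HEK293T table held 2 libraries each of undepleted, Ribo-Zero Gold, RiboCop and NEBNext footprints, from fragments of 15 to 35 nt. The HEK293FT table held 1 undepleted library and 1 library depleted with custom oligos, also from fragments of 15 to 35 nt. A first K562 table, called the kit table, held 2 libraries for each of undepleted footprints, FastSelect, and riboPools eluted in the standard way or cold, and 4 single Ribo-Zero Plus libraries, without additions, with oligos, with formaldehyde and with both, all from 20 to 34 nt. A second K562 table, called the size table, held 1 NEBNext and 1 undepleted library at 20 to 34 nt and likewise at 20 to 60 nt. Both libraries titled undepleted there also carry a label naming NEBNext, so each direction drawn from that table rests on the titles. HEK293T and HEK293FT are lines from human embryonic kidney and K562 cells derive from a chronic myeloid leukaemia. Cycloheximide was present at lysis in all of them. Cell line, experiment and fragment size change together between a HEK and a K562 table, and cell line and experiment between the HEK tables. Their parts in a difference between such tables cannot be told apart.

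The mitochondrial ribosome makes the few proteins encoded by mitochondrial DNA, which are core subunits of the respiratory chain and of ATP synthase. All of its proteins are encoded in the nucleus, translated on cytosolic ribosomes and imported, so the footprints counted here report cytosolic translation of these mRNAs. Bacterial ribosomes share a core of these proteins, and others are found only in mitochondria.

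Promoter sequences from RefSeq (GRCh38.p14) matched 69 of the 78 genes, and 29 of them (42%) held the letters CCGGAAG on either strand between 250 bases before and 50 after the start of the gene. These letters form the core of sites for ETS factors such as GABPA, which are known to act on many nuclear genes for mitochondrial proteins. Over the 14586 genes of the tables with a promoter entry, the share was 14.4%. Large subunit promoters held the letters at 17 of 42 and small subunit promoters at 12 of 27. The YY1 motif searched was found at 13 of the 69 (18.8%, against 2.02% of all), and the NRF1 motif at 8 (11.6% against 8.62%), on either strand in the same window. These are matches of letters, not measured binding. Up to 100 bases before the start are shown for 4 members that differed between the cell lines, with each CCGGAAG match, or CTTCCGG where it lies on the other strand, in capitals and the rest in lower case. MRPS22 and MRPL47 had more footprints in K562 than in HEK293T, and MRPL43 and MRPS34 had fewer. These members were shown because they hold a match in this stretch, so its presence in all 4 was set by the choice. Whether matches differ in frequency between members higher and lower in K562 was not tested.
MRPS22 (chr3:139343894-139343955, plus strand): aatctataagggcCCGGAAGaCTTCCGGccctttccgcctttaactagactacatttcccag
MRPL47 (chr3:179604639-179604738, minus strand): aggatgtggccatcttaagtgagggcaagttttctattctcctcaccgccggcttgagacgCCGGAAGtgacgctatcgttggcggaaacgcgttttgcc
MRPL43 (chr10:100987498-100987597, minus strand): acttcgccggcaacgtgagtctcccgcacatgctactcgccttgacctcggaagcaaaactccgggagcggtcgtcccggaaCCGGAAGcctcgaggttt
MRPS34 (chr16:1773135-1773234, minus strand): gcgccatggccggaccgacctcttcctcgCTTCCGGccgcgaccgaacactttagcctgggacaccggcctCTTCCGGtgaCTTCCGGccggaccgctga
Between the nearest match and the start lay 11 bases in MRPL43, 12 in MRPS34, 32 in MRPL47 and 72 in MRPS22. The start is that of RefSeq, and the transcripts counted here begin further upstream: the stretches of MRPL43, MRPL47 and MRPS34 hold 18, 16 and 21 bases of their first exon, and that of MRPS22, cut short where an exon begins, lies in an intron. The nearest matches of MRPL43 and MRPS34 are in the exon and those of MRPL47 and MRPS22 are not. MRPS34 held 3 matches and MRPS22 a facing pair.

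Libraries differed widely in depth, from 424 to 48467 footprints summed over the 78 genes. All 78 were detected in every library but 4: the undepleted K562 library at 20 to 60 nt had 76, and Ribo-Zero Plus had 75 with oligos, 66 with formaldehyde and 73 with both. The undepleted HEK293T libraries had 1003 and 1193 footprints on these genes, the undepleted K562 libraries 9336 and 8568 in the kit table and 1620 and 424 in the size table, and the undepleted HEK293FT library 7163. Marker genes matched the labelled lines. The 7 erythroid markers used (GATA1, TAL1, KLF1 and 4 globin genes) summed to between 3482 and 12760 counts per 1000000 counts (CPM) in K562 and to at most 6.516 CPM in the HEK lines, where 4 or more of the 7 were at 0 counts in each library. The 4 HEK293 markers used (PAX2 and 3 neurofilament genes) summed to 218.3 CPM or more in the HEK lines and to at most 0.687 CPM in K562, where at least 2 of the 4 were at 0. Nothing in the labels says whether libraries of a group came from separate cultures, so p-values measure the spread between these libraries, which may be technical.

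Together the 78 genes took a nearly constant share of coding footprints. Over all 26 libraries the share was 0.82% ± 0.034 (SD), with a lowest value of 0.741% in 1 HEK293T NEBNext library and a highest of 0.905% in the undepleted K562 library at 20 to 60 nt. In the undepleted libraries it was 0.836% and 0.777% in HEK293T, 0.795% in HEK293FT, 0.822% and 0.830% in the K562 kit table, and 0.852% and 0.905% in the K562 size table. The exact 95% binomial interval, which covers counting error only, ran from 0.785 to 0.889% and from 0.734 to 0.823% for the HEK293T libraries and from 0.821 to 0.995% for the shallowest, the undepleted K562 library at 20 to 60 nt. The lines thus overlapped in this share. The 13 mRNAs made inside mitochondria, the ones this ribosome translates, did not overlap in the same libraries: their footprints summed to 4108 and 4503 CPM in undepleted HEK293T, 9617 CPM in HEK293FT, 18680 and 19110 CPM in the K562 kit table and 24420 and 26480 CPM in the size table.

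The balance between the subunits differed between HEK and K562 libraries. These come from 4 tables in all, so libraries of a table are not independent repeats of a line. Counting error of the ratio was not estimated. The mean level per kb of coding sequence of the MRPL genes, divided by that of the MRPS genes, was between 1.069 and 1.188 in all 10 HEK libraries and between 0.752 and 1.032 in all 16 K562 libraries. In undepleted libraries the ratio was 1.082 and 1.069 in HEK293T, 1.188 in HEK293FT, 0.847 and 0.879 in the K562 kit table, and 0.869 and 0.879 in the size table. The K562 NEBNext library at 20 to 34 nt stood nearest to the HEK libraries, at 1.032, and NEBNext at 20 to 60 nt gave 0.906. Lowest were the 3 Ribo-Zero Plus libraries with additions, at 0.752, 0.765 and 0.804.

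The separation was also present under another membership and without the most abundant gene. No other gene was left out singly. By structure, MRPS18A and MRPS30 belong to the large subunit, MRPS36 is a subunit of the 2-oxoglutarate dehydrogenase complex, and DAP3, AURKAIP1, PTCD3 and CHCHD1 (small) and GADD45GIP1 (large) are mitoribosome proteins under other names. With that membership the HEK293T libraries lay between 1.04 and 1.13, HEK293FT between 1.10 and 1.14 and K562 between 0.79 and 1.01. Without MRPS21, the highest of the genes, left out after its level was seen, they lay between 1.08 and 1.26, between 1.26 and 1.29, and between 0.807 and 1.05.

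**Figure D1:**
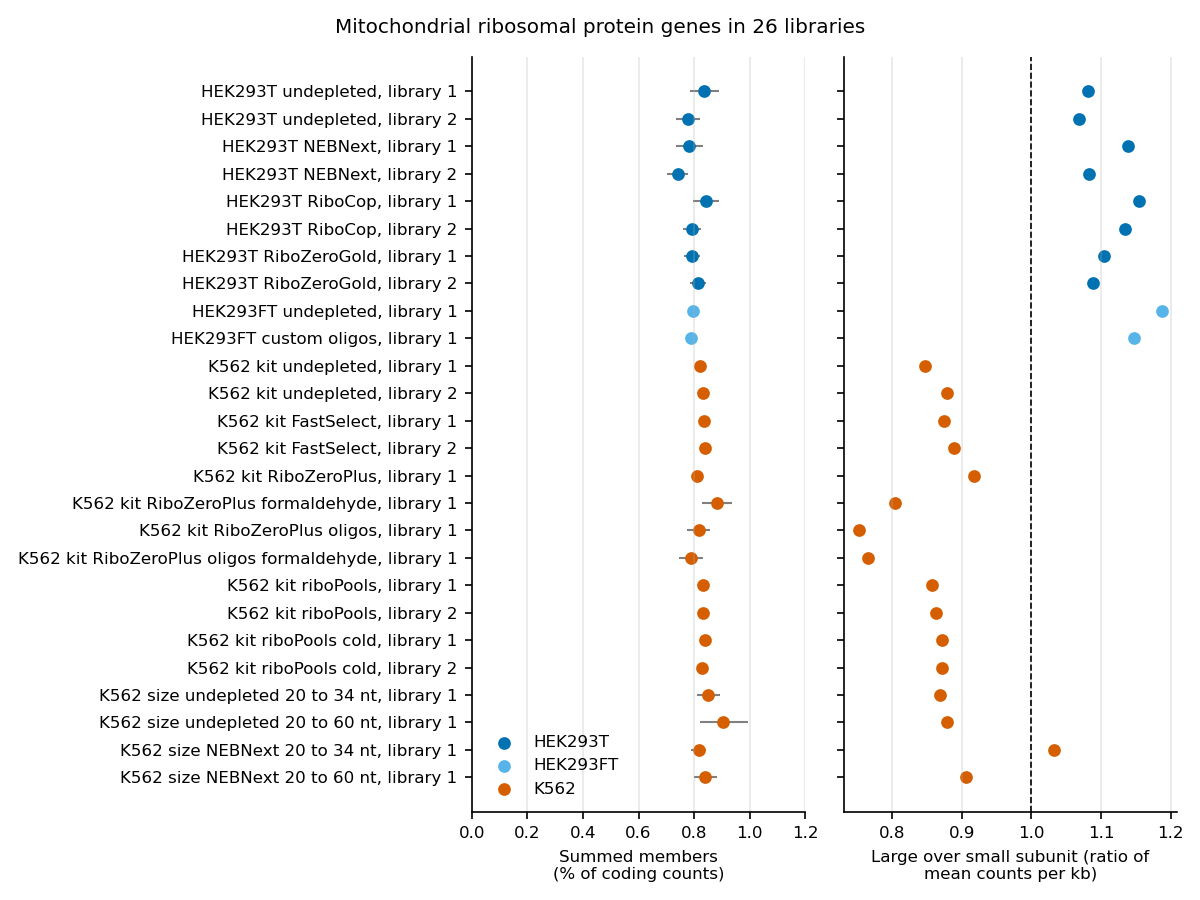
Left, the summed share of the 78 genes in coding footprints (percent, with the exact 95% binomial interval as a grey line), and right, the ratio of mean counts per kb of large over small subunit genes, 1 point for each of 26 libraries. The share lies between 0.741 and 0.905% in all lines, while the ratio lies at 1.069 or above in all HEK libraries and at 1.032 or below in all K562 libraries.

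Levels within the set were fairly even. Each gene's level was taken as CPM per kb of coding sequence and averaged over the 7 undepleted libraries. The median was 166.5 CPM per kb, 69 of the 78 genes lay within 2-fold of it, and the level at the 90th percentile was 2.88 times that at the 10th. This mean pools lines whose levels differ. By both measures, which are not corrected for counting error, single tables were less even. In them 61 (K562 size table) to 65 genes (HEK293FT) lay within 2-fold of the table's median. The same ratio of percentiles was 3.43 in the K562 kit table, 3.45 in HEK293FT, 3.84 in HEK293T and 4.38 in the K562 size table. The SD of log2 levels was also taken less counting variance, over members with 5 or more counts. It was 0.75 in the K562 kit table, 0.72 in HEK293FT, 0.69 in HEK293T and 0.68 in the K562 size table. The order of the tables thus changed with this correction. An effective number of genes (the inverse Simpson index, which is 78 when all levels are equal) was 58.58 in undepleted HEK293T, 61.48 in HEK293FT, 59.58 in the K562 kit table and 62.88 in the size table. It was thus between 75.1 and 80.6% of the possible 78 in each line. Mitochondrial translation factors, such as the elongation factor TUFM, were much less even, with an effective number of 2.90 to 3.98 for 12 genes. The 23 genes for assembly of the mitoribosome and modification of its RNA gave 15.35 to 17.58. In the 3 Ribo-Zero Plus libraries with additions the effective number of the 78 genes was 43.66, 45.08 and 49.53, below the other 23 libraries (55.48 to 65.49), and these 3 also had 1028, 1300 and 1508 footprints on the set. The measure corrects for the sampling of counts, but the part of other differences between these libraries was not tested.

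The highest level was that of MRPS21, a small subunit protein with a bacterial counterpart, at 672 ± 122 CPM per kb (SD, n = 7 undepleted libraries). Its values were 830 and 624 in HEK293T, 502 in HEK293FT, 675 and 691 in the K562 kit table and 564 and 818 in the size table, the highest of the 78 genes in each of these 7 libraries. Across libraries its range overlapped single values of MRPL52 (583), MRPL51 (543) and MRPL20 (541). MRPL52 followed at 402 ± 90.8, then MRPL51 at 349 ± 122, MRPS16 at 338 ± 104 and MRPL20 at 307 ± 125, whose ranges overlapped from 1 to the next. This order pools lines that differ: MRPL51 ranked 2 in HEK293T and 16 in the K562 kit table, MRPL20 4 and 13, MRPS16 7 and 2, and MRPS18B 27 and 3, while MRPL52 ranked 3 and 4. All 5 have short coding sequences, of 261 to 447 nt against a median of 585 nt. Across the 78 genes level and coding length had a Spearman's rho of -0.31, against -0.73 across 4254 genes averaging 20 counts or more.

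The lowest levels were those of MRPS31 at 50.03 ± 22.4 CPM per kb, MRPL44 at 54.01 ± 23.7, MRPS17 at 56.3 ± 34.7, MRPL1 at 60.3 ± 20.1 and MRPL38 at 81.1 ± 21.5. These overlapped one another: MRPS17, for one, had 42.7 and 100 CPM per kb in HEK293T, 68.3 in HEK293FT, 79.0 and 77.0 in the K562 kit table, 27 in the size table at 20 to 34 nt, and 0 counts at 20 to 60 nt, where the floor of 3 counts exceeds its level elsewhere. MRPS17 rested on 2 and 6 counts in HEK293T and was 1 of 3 members that did not pass the filter on low counts in the comparison of lines. Members with a bacterial counterpart (45 genes) had a median of 180 CPM per kb and those found only in mitochondria (29 genes) 140, with ranges of 56.3 to 672 and 50.03 to 402 that overlapped over most of their length.

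**Figure D2:**
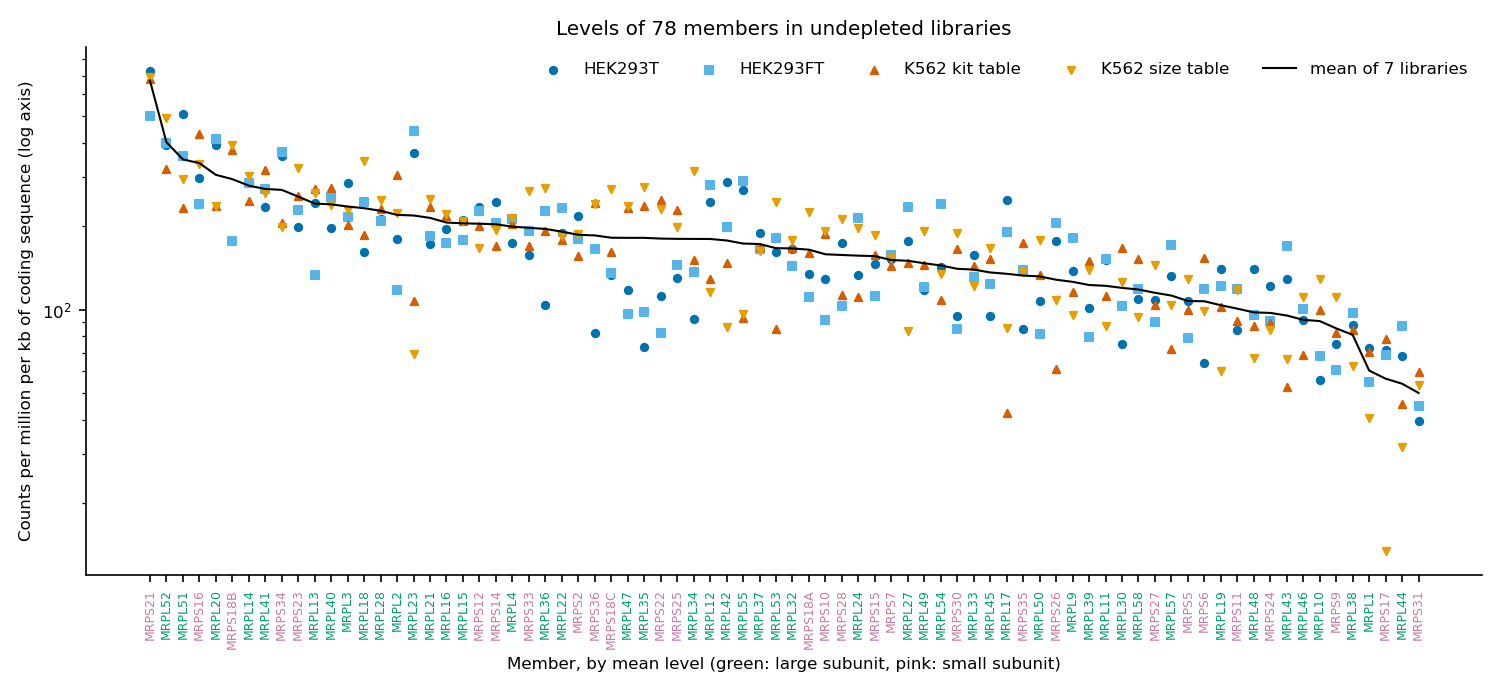
Level of each of the 78 genes in undepleted libraries (CPM per kb of coding sequence, log axis), ordered by the mean of 7 libraries (line), with 1 symbol per table. Levels run from 672 for MRPS21 to 50.03 for MRPS31, and MRPL17, MRPL23, MRPS22 and MRPS18B show HEK and K562 symbols apart.

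The levels of the members were alike between the HEK lines and between the K562 tables, and much less so between HEK and K562. Log2 levels of the 78 genes had a Pearson's r of 0.86 between HEK293T and HEK293FT and 0.87 between both K562 tables, and of 0.46 to 0.49 for the 4 pairs of a K562 and a HEK table. These are correlations across genes, which are not replicates. All 4254 genes gave 0.96, 0.97 and 0.66 to 0.69 for the same pairs. The SD of the log2 difference across members was 0.40 in each pair of 1 kind and 0.75 to 0.78 between kinds, where all genes had 1.57 to 1.73. The members thus differed less between the lines than genes at large.

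Gene by gene, the undepleted libraries of all 4 tables were tested in 1 fit (edgeR's quasi-likelihood test, Benjamini-Hochberg adjusted over 5551 genes, called at an adjusted p under 0.05). Between the K562 kit table and HEK293T, 25 of 75 members tested were called, 16 higher and 9 lower in K562, where 44.3% of all genes tested were called (22% higher and 22.3% lower). The members' share, 33.33%, was below that background. Their median log2 difference was 0.16 with an SD of 0.77, against a median of -0.012 and an SD of 2.32 over all genes. The split of calls depends on scaling: scaling to total counts moved the median of all genes to -0.16 and gave 11 higher and 12 lower. Large subunit genes were called higher at 8 and lower at 7 of 47, and small subunit genes at 8 and 2 of 28.

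Of the 9 members called lower in K562, 7 were large subunit genes by name, as were 47 of the 75 tested. A difference between the subunits in this share was not tested. MRPL17 (ENST00000288937.6, GRCh38 chromosome 11, 6680782 to 6683401, minus strand), a protein of the bacterial core that lies near the exit of the peptide tunnel, had 150 and 111 CPM in HEK293T, 99.9 in HEK293FT, 20.3 and 24.2 in the K562 kit table, and 47.3 and 42.7 in the size table. All 4 K562 values were below all 3 HEK values, and the log2 difference to HEK293T was -2.41 ± 0.36 (SE, edgeR adjusted p 4.7e-10). MRPL23 (ENST00000397298.7, chromosome 11, 1947278 to 1956609, plus strand), another protein at the tunnel exit, had 175 and 163 CPM in HEK293T and 203 in HEK293FT, but 53.7 and 44.6 in the K562 kit table and 42.1 and 21.3 in the size table, again without overlap (log2 difference -1.65 ± 0.28, edgeR adjusted p 6.21e-08). MRPS26, a small subunit protein found only in mitochondria, had 100 and 117 CPM in HEK293T, 127 in HEK293FT, 42.3 and 32.9 in the K562 kit table and 47.3 and 85.4 in the size table. Its log2 difference to HEK293T was -1.42 ± 0.34 (edgeR adjusted p 0.000185).

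The other members called lower were MRPL55 (-1.39 ± 0.36), MRPL43 (-1.20 ± 0.46), MRPL51 (-1.03 ± 0.24), MRPL42 (-0.83 ± 0.30), MRPL12 (-0.82 ± 0.28) and MRPS34 (-0.67 ± 0.22). MRPL12 is the stalk protein that contacts translation factors and is present in several copies on each ribosome. It had 133 and 156 CPM in HEK293T, 168 in HEK293FT, 78.4 and 74.6 in the K562 kit table and 73.6 and 64.0 in the size table, and these groups did not overlap (edgeR adjusted p 0.00927). MRPS34 had 267 and 202 CPM in HEK293T, 242 in HEK293FT, 131 and 138 in the K562 kit table and 131 and 128 in the size table (edgeR adjusted p 0.00766).

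Of the 16 members called higher in K562, 8 carry the name of each subunit, and the 8 named for the small subunit include MRPS30 and MRPS36, which by structure do not belong to it. MRPL35 (ENST00000337109.8, chromosome 2, 86199457 to 86213794, plus strand), of the bacterial core, had 50 and 32.6 CPM in HEK293T and 55.5 in HEK293FT, and 116, 150, 163 and 149 in the 4 undepleted K562 libraries. The HEK293T values rest on 6 and 5 counts, and the log2 difference was 1.83 ± 0.37 (edgeR adjusted p 5.01e-06). MRPS22 (ENST00000495075.5, chromosome 3, 139005806 to 139357046, plus strand), found only in mitochondrial ribosomes, had 91.7 and 150 CPM in HEK293T, 88.8 in HEK293FT, 278 and 258 in the K562 kit table and 200 and 299 in the size table (log2 difference 1.22 ± 0.23, edgeR adjusted p 1.24e-06). MRPS18B (chromosome 6, 30617709 to 30626395, plus strand) had 150 and 124 CPM in HEK293T, 137 in HEK293FT, 289 and 296 in the K562 kit table and 331 and 277 in the size table (1.22 ± 0.22, edgeR adjusted p 3.81e-07). For these 3 genes every undepleted K562 library lay above every undepleted HEK library.

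MRPS18A, MRPS18B and MRPS18C are paralogs of 1 bacterial protein, and each sits at its own place in the mitoribosome. In the same comparison MRPS18A had a log2 difference of 0.35 ± 0.32 and MRPS18C of 0.34 ± 0.38, neither called (edgeR adjusted p 0.39 and 0.488). In the deeper fit described further on, MRPS18A was called higher in K562 (0.98 ± 0.14, edgeR adjusted p 1.78e-10) and MRPS18C was not (0.25 ± 0.14, edgeR adjusted p 0.117). Whether the paralogs differed from one another was not tested. MRPS18A had 66.7 and 91.2 CPM in HEK293T, 65.5 in HEK293FT, and 96.9, 92.1, 94.6 and 171 in K562.

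MRPL47 had 91.7 and 84.7 CPM in HEK293T and 72.2 in HEK293FT, and 173, 177, 184 and 171 in K562 (1.11 ± 0.28, edgeR adjusted p 0.000359). MRPS30, which by structure is a large subunit protein, had 125 and 124 CPM in HEK293T, 112 in HEK293FT, 235 and 200 in the K562 kit table and 179 and 320 in the size table (0.92 ± 0.24, edgeR adjusted p 0.000619). Neither gene overlapped between undepleted HEK and undepleted K562 libraries. MRPS36, the dehydrogenase subunit, had 25 and 26.1 CPM in HEK293T (3 and 4 counts), 51.1 in HEK293FT, 74.9 and 75.6 in the K562 kit table and 84.1 and 64.0 in the size table (1.66 ± 0.47, edgeR adjusted p 0.00174). The other members called higher were MRPS6 (1.48 ± 0.53), MRPL30 (1.24 ± 0.42), MRPS35 (1.17 ± 0.29), the stalk base protein MRPL10 (0.94 ± 0.40), MRPL2 (0.91 ± 0.21), MRPS25 (0.89 ± 0.32), MRPL45 (0.78 ± 0.29), MRPS16 (0.71 ± 0.26), MRPL39 (0.67 ± 0.27) and MRPL40 (0.61 ± 0.26). MRPL45 anchors the ribosome to the inner membrane. MRPL2, MRPS25, MRPL39 and MRPL40 are outside the 10 largest changes and the roles chosen for description, and are given to complete the list.

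Other members chosen for their role were not called between undepleted K562 and HEK293T, though MRPS12 and MRPL58 were in the deeper fit. MRPS12, at the decoding site, had 83.3 and 111 CPM in HEK293T and 89.8 and 75.6 in the K562 kit table (-0.14 ± 0.31, edgeR adjusted p 0.745). With the deeper, mainly depleted libraries added its sign turned and it was called higher in K562 (0.44 ± 0.14, edgeR adjusted p 0.00278). In HEK293T it had 79.7 and 52.2 CPM with Ribo-Zero Gold and 89.6 and 58.5 with RiboCop. MRPL11, at the base of the stalk, had 83.3 and 91.2 against 67.8 and 61.1 CPM (-0.33 ± 0.34, edgeR adjusted p 0.44). MRPL58, a peptide release factor built into the large subunit, had 50 and 84.7 against 82.8 and 105 CPM (0.54 ± 0.34, edgeR adjusted p 0.187), and was called with deeper libraries (0.74 ± 0.15, edgeR adjusted p 1.28e-06). Among undepleted libraries the stalk genes MRPL12 and MRPL10 were called in opposite directions, with MRPL11 not called.

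Low depth in HEK293T limits these calls. Leaving out either HEK293T library lowered the share called over all genes as well as among the members. Of the 21 called members chosen for description by size of change or role, 8 stayed called in all 11 alternatives: MRPL35, MRPS36, MRPS22, MRPS18B, MRPL47, MRPS30, MRPL17 and MRPL23. With HEK293T library 1 left out, 15 members were called, and with library 2 left out, 11. MRPS6, with 5 and 1 counts in HEK293T, changed most, from 1.48 to 3.32 (edgeR adjusted p 0.00349) without library 1 and to 0.70 (edgeR adjusted p 0.48) without library 2. Without library 2 MRPS26 had -1.15, MRPL51 -0.79, MRPS35 0.99 and MRPS16 0.33, and without library 1 MRPL55 had -1.11, none called. MRPL12 had -0.80 and -0.55, MRPS34 -0.36 and -0.74, MRPL42 -0.50 and -0.93, MRPL43 -1.15 and -0.97, MRPL30 1.26 and 1.51, MRPL10 1 and 1.15, and MRPL45 0.85 and 0.99 without library 1 and library 2, also not called. MRPL10, at 0.79, MRPS16, at 0.56, and MRPL45, at 0.63, also lost the call when libraries were scaled to total counts.

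Deeper libraries were then added, after the first values were seen. The 6 HEK293T libraries (undepleted, Ribo-Zero Gold and RiboCop) were set against the 8 K562 kit libraries (undepleted, FastSelect and both kinds of riboPools), none of them treated with a nuclease against rRNA. Of the 78 members, all tested, 38 were called higher and 16 lower in K562, where 69.2% of 10434 genes were called (33.9% higher and 35.3% lower). Large subunit genes were called higher at 21 and lower at 13 of 49, and small subunit genes at 17 and 3 of 29, with medians of 0.12 and 0.53 on the log2 scale. The most extreme differences were those of MRPL35 (1.79 ± 0.14), MRPS22 (1.67 ± 0.09), MRPL2 (1.47 ± 0.09), MRPS18B (1.43 ± 0.09) and MRPL47 (1.38 ± 0.11) above 0, and MRPL17 (-1.73 ± 0.14), MRPS26 (-1.52 ± 0.14), MRPL23 (-1.36 ± 0.11) and MRPL43 (-1.34 ± 0.16) below it. This fit shares the undepleted libraries with the first. It had a group for each line and no term for the kit. Differently depleted libraries thus counted as replicates of a line, and differences between kits enter its values and p-values. MRPS21 had 217 and 163 CPM in undepleted HEK293T and 96.8 to 147 with Ribo-Zero Gold or RiboCop, and 0.66 ± 0.10 in this fit.

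A pair of tables with no library in either group of the first comparison is K562 at both sizes against HEK293FT. Both tables were part of the same fit, so they entered its filter, scaling and estimate of the spread. There all 16 members called higher had a positive log2 difference of undepleted CPM, from 0.11 for MRPS6 to 1.53 for MRPL35, and all 9 called lower had a negative one, from -0.36 for MRPL51 to -2.35 for MRPL23. The 50 members not called split into 30 positive and 20 negative. Across all 78 genes the differences of both pairs had a Pearson's r of 0.76. HEK293FT has 1 undepleted library, and no test was made of this pair.

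**Figure D3:**
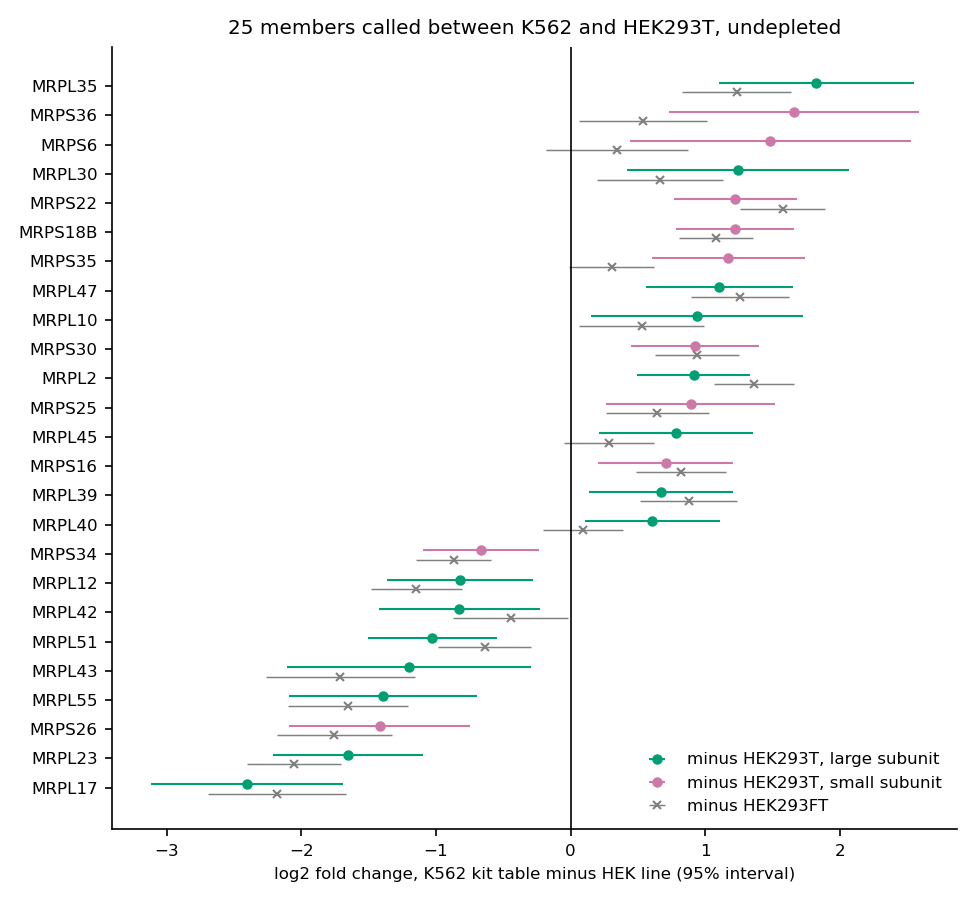
log2 fold change of undepleted footprints for the 25 members called between K562 and HEK293T, as K562 kit table minus HEK293T (circles, green for large and pink for small subunit genes) and minus HEK293FT (grey crosses), with 95% intervals. Both comparisons use the same K562 libraries; 16 members lie above 0, led by MRPL35 at 1.83, and 9 below, led by MRPL17 at -2.41.

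Against HEK293FT, the K562 kit table differed at 36 of 75 members, 18 higher and 18 lower, where 60.7% of all genes tested were called (29.3% higher and 31.3% lower). This comparison shares the K562 libraries with the one against HEK293T and takes the lone HEK293FT library to vary like the others. Among large subunit genes 8 were higher and 16 lower, and among small subunit genes 10 were higher and 2 lower. MRPL17 (-2.18 ± 0.26), MRPL23 (-2.05 ± 0.18), MRPS26 (-1.75 ± 0.22) and MRPL43 (-1.71 ± 0.28) were lowest, and MRPS22 (1.58 ± 0.16), MRPL2 (1.36 ± 0.15) and MRPL47 (1.26 ± 0.19) highest. DESeq2 called 16 members.

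The HEK lines were closer to each other. No member was called between HEK293FT and HEK293T (8 of 75 had an unadjusted p under 0.05, and DESeq2 called 0), where 7.57% of genes were called. Members lay between -0.76 for MRPL13 and 1.21 for MRPL36. When Ribo-Zero Gold, RiboCop and custom oligo libraries were added, after these values were seen, 19 of 78 members were called, 15 higher and 4 lower in HEK293FT, where 22.7% of genes were called (11.8% higher and 10.9% lower). Of the 15, 13 were large subunit genes, among them MRPL36 (0.80 ± 0.18), MRPL10 (0.71 ± 0.19) and MRPL12 (0.58 ± 0.13). MRPL13 stood apart at -1.10 ± 0.12 (edgeR adjusted p 1.45e-16), ahead of MRPS28 at -0.43 ± 0.16, MRPL3 at -0.37 ± 0.08 and MRPS27 at -0.30 ± 0.11. The fit had no term for the kit, so differences between kits enter these values. In HEK293T MRPL13 had 117 and 143 CPM undepleted, 199 and 178 with Ribo-Zero Gold, and 160 and 210 with RiboCop. In HEK293FT it had 71.1 CPM undepleted and 76.2 with custom oligos. The part of the kits was not tested. Both K562 tables, 2 experiments on 1 line, differed at 0 of 75 members in edgeR and in DESeq2 (3 had an unadjusted p under 0.05), where 0.288% of genes were called.

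The difference between the lines varied with the base composition of the coding sequence within the set. Across the 78 genes the log2 difference between the K562 kit table and HEK293T was lower at higher GC content (Pearson's r -0.40), and that of the K562 size table and HEK293FT, which share no library with the first, had an r of -0.41. The other pairs of a K562 and a HEK table, which share libraries with these, gave -0.28 (size table and HEK293T) and -0.52 (kit table and HEK293FT). Between tables of 1 kind r was 0.26 for HEK293FT less HEK293T and 0.21 for the K562 size table less the kit table. Across 4254 genes the first 2 pairs gave 0.019 and -0.028. Members called higher in K562 had a median GC content of 47.8% (41.4 to 59.0%), those called lower 61.4% (39.9 to 68.1%) and those not called 53.03%. MRPL42, at 39.9% GC and lower in K562, went the other way. HEK and K562 tables differ in experiment and fragment size, and their part in this relation was not tested.

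**Figure D4:**
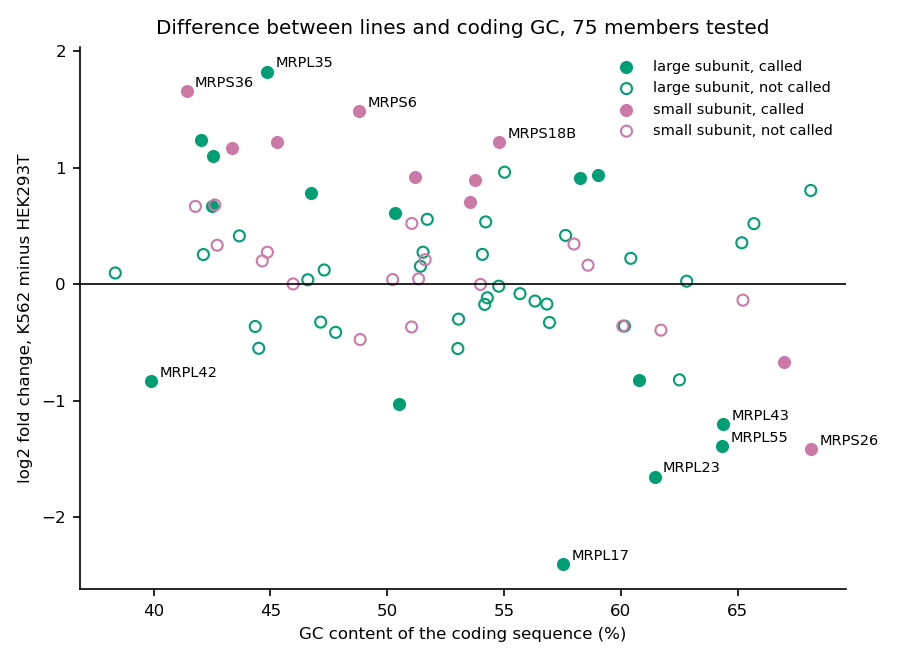
log2 fold change of K562 over HEK293T in undepleted libraries against GC content of the coding sequence (percent) for 75 members, filled where called. Members called lower have a median of 61.4% GC and those called higher 47.8%, and MRPL42, called lower, lies at 39.9%.

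Proteins of the mitoribosome that are not named MRP were followed as a list of 5, of which 3 were called between K562 and HEK293T, against the 44.3% of all genes given before. DAP3 and AURKAIP1, both of the small subunit, were higher in K562 than in HEK293T (0.96 ± 0.22 and 0.53 ± 0.22, edgeR adjusted p 7.13e-05 and 0.0426). GADD45GIP1, of the large subunit, was lower (-0.76 ± 0.22, edgeR adjusted p 0.00171). PTCD3 and CHCHD1, of the small subunit, had 0.54 ± 0.26 and 0.48 ± 0.36 and were not called. In undepleted libraries the 4 small subunit genes summed to 450 and 528 CPM in HEK293T, 491 in HEK293FT, 712 and 744 in the K562 kit table and 794 and 875 in the size table, while GADD45GIP1 had 233 and 248, 238, 134 and 129, and 142 and 149 CPM. Neither overlapped between HEK and K562. Of 8 translation factors tested, 12.5% were called, below that background: TUFM was higher in K562 (0.36 ± 0.13, edgeR adjusted p 0.0142). Of 14 assembly and rRNA modification genes tested, 28.57% were called, also below it: NSUN4 (1.87 ± 0.55) and GTPBP10 (1.15 ± 0.45) were higher and MRM3 (-1.23 ± 0.45) and DHX30 (-0.54 ± 0.21) lower.

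The 6 kits or elutions with replicates had at most 1 member called in their table, while 2 were called for NEBNext in the K562 size table and 12 for plain Ribo-Zero Plus. In HEK293T the 3 kits were each compared with the same undepleted libraries. NEBNext, in which a nuclease digests rRNA held by DNA probes, had 1 of 72 members called, where 3.24% of 4410 genes were. This was MRPS21, with 217 and 163 CPM undepleted, 105 and 34.8 with NEBNext, 96.8 and 112 with Ribo-Zero Gold and 147 and 124 with RiboCop. NEBNext and undepleted libraries did not overlap (log2 difference -1.54 ± 0.36, edgeR adjusted p 0.00127). The call rests on few counts: without NEBNext library 2, which had 7, the difference was -0.82 (edgeR adjusted p 0.49), without undepleted library 1 it was -1.36 (0.0917), and DESeq2 gave MRPS21 no adjusted p. Ribo-Zero Gold and RiboCop, which remove rRNA on beads, had 0 of 72 members called (5 and 1 at an unadjusted p under 0.05, 0 by DESeq2), where 0.068% and 0% of genes were.

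In the K562 size table NEBNext had 2 of 67 members called, where 2.72% of 3715 genes were, in a fit with 1 residual degree of freedom. MRPS5, a small subunit protein of the bacterial core, had 184 and 149 CPM undepleted and 54.4 and 130 with NEBNext at 20 to 34 and 20 to 60 nt (-1.17 ± 0.36, edgeR adjusted p 0.0485). MRPL15 had 200 and 171 CPM undepleted and was higher with NEBNext, at 367 and 270 (0.88 ± 0.27, edgeR adjusted p 0.0429). Both were lost when libraries were scaled to total counts (-1.22 and 0.83, edgeR adjusted p 0.114 and 0.121) and without the filter on low counts.

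The HEK293T libraries give the same genes in other cells. MRPS5 had 167 and 111 CPM undepleted and 67.5 and 49.7 with NEBNext (-1.23 ± 0.40, edgeR adjusted p 0.0609), and MRPL15 had 225 and 150 against 278 and 264 CPM (0.57 ± 0.26, edgeR adjusted p 0.26). MRPS21 in turn had 147 and 213 CPM undepleted and 68.0 and 115 with NEBNext in K562 (-0.98 ± 0.36, edgeR adjusted p 0.128). For each of these 3 genes NEBNext and undepleted libraries did not overlap in either line, as for 12 members above and 18 below undepleted in HEK293T and 15 above and 19 below in K562, of 78. RiboCop in HEK293T, with 0 members called, had 14 above and 18 below. The share of all genes without such overlap was not counted, so these numbers have no background. The 3 genes were in part chosen for their lack of overlap. A fit of both tables, added after these values were seen, called a different NEBNext effect at 0 of 75 members (1 at an unadjusted p under 0.05) and at 0.296% of 4736 genes.

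FastSelect, which blocks reverse transcription of rRNA, and riboPools with standard and with cold elution, which pull rRNA out on beads, had 0 of 78 members called in K562 in edgeR and in DESeq2, where 0.0198%, 0.0794% and 0.258% of 10078 genes were called. Of the members, 8, 3 and 4 had an unadjusted p under 0.05. All members lay between -0.35 and 0.49 on the log2 scale under these 3 kits, in libraries with 19101 to 48467 footprints on the set.

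Plain Ribo-Zero Plus, which like NEBNext uses a nuclease, had 12 of 78 members called, 6 higher and 6 lower, where 20.6% of genes were (8.95% higher and 11.7% lower). It is a single library, taken to vary like the replicated groups. MRPL58 had 82.8 and 105 CPM undepleted and 55.4 with Ribo-Zero Plus (-0.73 ± 0.18, edgeR adjusted p 0.00113), and MRPS33 61.6 and 46.5 against 35.9 (-0.58 ± 0.22, edgeR adjusted p 0.0454). MRPL23 had 53.7 and 44.6 CPM undepleted and 77.2 with the kit (0.66 ± 0.19, edgeR adjusted p 0.00596), MRPS18C 56.4 and 81.4 against 102 (0.60 ± 0.16, edgeR adjusted p 0.00445) and MRPL50 59.9 and 66.9 against 92.9 (0.57 ± 0.17, edgeR adjusted p 0.00799). In each of these 5 the kit's value lay outside both undepleted values, which the choice of the genes required and which held for 23 members above and 35 below, of 78. The share of all genes for which this held was not counted. DESeq2 called 1 of the 78, MRPL58. With undepleted library 1 left out 4 members were called, and MRPS18C (0.34), MRPS33 (-0.36) and MRPL50 (0.49) were not. With library 2 left out 7 were, and MRPL58 (-0.56) and MRPL23 (0.54) were not.

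The 3 Ribo-Zero Plus libraries with additions spread the members far apart. The SD of the log2 ratio to undepleted across the 78 genes was 1.36 with oligos, 1.54 with formaldehyde and 1.40 with both, where counting alone gives 0.63, 0.93 and 0.69. It was 0.30 against 0.17 for plain Ribo-Zero Plus. With oligos, formaldehyde and both, 3, 12 and 5 of the 78 genes had 0 counts. MRPL23 was at 0 counts with formaldehyde and with both, and had 4 counts with oligos. The HEK293FT custom oligo library, in contrast, differed from its undepleted library by an SD of 0.17, against 0.18 from counting, with no member beyond 2-fold and extremes of -0.40 for MRPL35 and 0.47 for MRPS24. These libraries have no replicates.

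**Figure D5:**
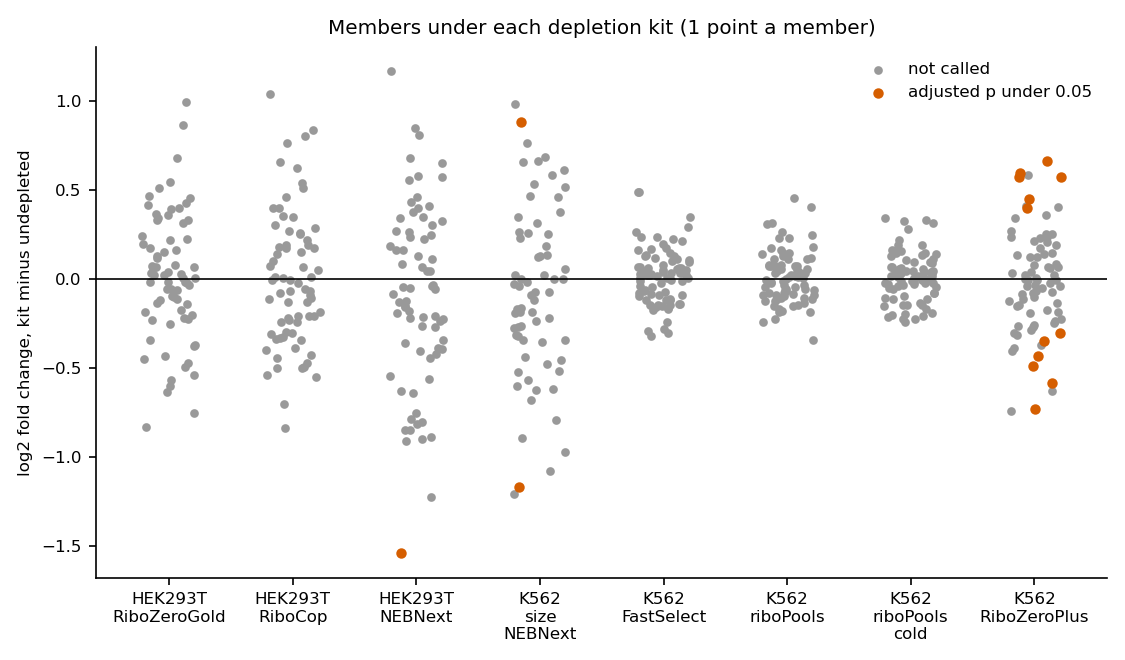
log2 fold change of each member tested, kit minus undepleted, for 8 kit comparisons (1 point a member, orange where the adjusted p is under 0.05). Called are 1 member for NEBNext in HEK293T (MRPS21 at -1.54), 2 for NEBNext in the K562 size table and 12 for plain Ribo-Zero Plus, and the points are most tightly packed under FastSelect and riboPools, between -0.35 and 0.49.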

How the data were processed

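Each of the 4 tables the authors deposited gives raw counts of reads on the coding sequence of 1 transcript per gene, per the file headers. CASAVA 1.8, STAR and GRCh38 (hg38) are named in the submitters' processing notes without a role. The annotation, read filters and the treatment of duplicate reads and of reads shared with near-identical copies are not given in the sources used here. Several members have processed pseudogenes, so their values are uncertain to that extent. Binomial intervals of shares cover counting error only, and intervals of fold changes also the spread between libraries.

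CPM is the count over the library total. Coding lengths, GC content and positions came from GENCODE release 29 (97.51% of transcript identifiers matched, all 78 members with a coding length), which may not be the authors' annotation.

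Counts were tested with edgeR 4.0.16 in R 4.3.3 (TMM, filterByExpr with a minimum count of 10, quasi-likelihood test), with DESeq2 1.42.0 as an alternative. The 7 undepleted libraries formed 1 fit grouped by table (3 residual degrees of freedom). Kits were fitted within each table. The 3 shallow Ribo-Zero Plus libraries with additions were left out of the kit table's fit because they raise its spread. Fold changes are log2 ± SE. The members, gene lists and designs were chosen with earlier results of these data known. Named genes are called members with the largest changes whose libraries do not overlap (up to 10 in each direction between lines, up to 5 per kit), the 5 highest and 5 lowest levels, and members chosen by role. Replicate pairs differed by a chi-square of 1.027 to 1.204 per degree of freedom. The RiboCop pair agreed within sampling noise (p 0.101), and both libraries were kept because their barcodes and totals differ. The fit was tested on simulated data. Some genes of the marker lists are not reported here.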

Additional observations from a re-analysis of the deposited data

How the results depend on the processing

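Under RLE size factors, total count scaling, no filter on low counts, a fit of only the HEK293T and K562 kit libraries, and the mean of both K562 tables, 23 to 25 members were called between K562 and HEK293T. DESeq2 called 15, leaving out 1 library gave 11 to 23, and adding bead- and blocker-depleted libraries gave 54. For HEK293FT against HEK293T the added bead- and oligo-depleted libraries gave 19 calls where all other settings gave 0. For K562 against HEK293FT, DESeq2 called 16 and leaving out 1 library gave 27 to 31. NEBNext in HEK293T had 0 calls in DESeq2 and 0 to 1 when 1 library was left out. NEBNext in K562 had 0 calls under total count scaling, no filter and DESeq2. No library could be left out there, as no residual degree of freedom remains. Ribo-Zero Plus had 1 call in DESeq2, 4 to 7 when 1 undepleted library was left out, and 10 (1 higher, 9 lower) for the mean of its 4 libraries. In that fit 1431 of 9628 genes were called, 143 higher and 1288 lower, with a median log2 difference of -0.43. The mean of the 4 libraries reversed MRPL50 to -0.29 and MRPL23 to -5.15. The value of MRPL23 was set by the handling of zeros, as 2 of the 4 libraries have 0 counts of it. Wherever DESeq2 or a fit without 1 library called fewer members, it also called fewer of all genes. Between K562 and HEK293T, DESeq2 called 1637 of 5551 genes, where the main fit called 2461. Same-numbered libraries deviated together weakly or not at all (r from 0.039 to 0.108 in HEK293T and from -0.045 to 0.008 in the K562 kit table), and a fit with the replicate number as a block gave 1 call for NEBNext in HEK293T and 0 for Ribo-Zero Gold, RiboCop, FastSelect and both kinds of riboPools, as without it.

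Between K562 and HEK293T, 7 of the named members that were not called in the main comparison changed sign. Signs were followed gene by gene for the named members only. Of the 75 members tested, 45 were positive in the main fit, 40 under RLE size factors and 38 under total count scaling. Members that are not named thus changed sign too. Under RLE size factors MRPL38 had -0.031 and MRPS21 -0.011, under total count scaling MRPL1 -0.053, MRPL38 -0.124 and MRPS21 -0.104, and in DESeq2 MRPL38 -0.021 and MRPS21 -0.018. For the mean of both K562 tables MRPL1 had -0.13, MRPL38 -0.042, MRPS21 -0.036 and MRPL52 0.049. With 1 library left out, MRPL44 ranged from -0.619 to 0.041, MRPL1 from -0.031 to 0.459, MRPL38 from -0.051 to 0.456, MRPL20 from -0.94 to 0.169, MRPL52 from -0.199 to 0.078, MRPS21 from -0.036 to 0.36 and MRPS12 from -0.228 to 0.241. With the added depleted libraries MRPL52 had 0.117 and MRPS12 0.441, which was called. The cause was not tested.

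Over the 7 undepleted libraries the summed level averaged 8310 CPM, 9091 with the structural membership (which adds genes) and 8937 when mitochondrial mRNAs and the 10 most counted genes of each library were left out of the total. The effective number averaged 60.33, and 63.29 with the structural membership. The ratio of large to small subunit genes averaged 0.973 and moved by less than the SD between libraries in each setting run. Leaving out 1 HEK293T or K562 kit library (no other was left out) gave 8303 to 8400 CPM, ratios of 0.955 to 0.994 and effective numbers of 60.14 to 61.14. Depth limits low genes: the shallowest undepleted library had 424 footprints on the 78 genes.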
